A study of Gallus gallus with 6 samples.

Results

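*ZP3* encodes zona pellucida sperm-binding protein 3, a structural protein of the egg envelope. It is 1 row (gene11607) of the 17992 genes in the deposited table, and it was followed here through the 6 follicles by its gene number, with the FSH receptor gene *FSHR* (gene4883) as the gene it was set against. The follicles were whole small yellow follicles from 3 wild-type Jining Bairi hens aged 30 weeks, 2 follicles per hen, with 1 RNA-seq library each and no treatment. T4 and T1 came from hen 1, T5 and T2 from hen 2, and T6 and T3 from hen 3. Within a hen the follicles were chosen for a difference in *FSHR*. The submitters' titles call T4, T5 and T6 low in *FSHR* and T1, T2 and T3 high, whereas *FSHR* in these libraries ran the other way in every hen. The real-time PCR of the paper also put the higher *FSHR* level in T4, T5 and T6, with only a small difference in hens 2 and 3. The follicles are therefore named by number throughout, and ratios have T4, T5 or T6 on top.

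The egg envelope of birds, called the perivitelline layer, lies between the oocyte and the granulosa cells and carries the binding sites for sperm. It is built from proteins that share the zona pellucida domain. In birds ZP3 and ZPD are made by the granulosa cells of the follicle, while ZP1 reaches the follicle from the liver. The FSH receptor is the granulosa cell receptor through which follicle-stimulating hormone acts. The oocyte and the theca, with its connective tissue and blood vessels, were in the samples too, so each level is that of a mixture. In such bulk samples fewer cells of a type and less RNA per cell cannot be told apart.

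By the table, *ZP3* lies on the + strand of chromosome 10, from 2131007 to 2134350, a span of 3344 bases. Its listed transcript length is 1341 bases, a whole multiple of 3, as were 53.2% of all listed lengths. *FSHR* lies on chromosome 3, from 7340944 to 7419864 on the + strand, with a listed length of 3486 bases. *ZPD* (gene12039) lies on chromosome 11, from 520376 to 524806 on the + strand, with a listed length of 1799 bases. The sources name conflicting builds for these positions, and no exon structure was used.

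The libraries held an estimated 12560563 to 13941534 fragments. Between 45702 and 111683 of these were from *ZP3* in T4, T5 and T6, against 21812 to 28261 in T1, T2 and T3, so that counting alone gives an error of 0.299% to 0.677% of its level. *FSHR* rested on 848 to 1935 fragments in T4, T5 and T6 and on 527 to 637 in T1, T2 and T3, a counting error of 2.27% to 4.36%. T4 was the least typical library, with a Spearman correlation across genes to the others of 0.866 to 0.932, against 0.943 to 0.977 among the rest. Results that rest on hen 1 are given with and without it.

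*ZP3* was among the most abundant transcripts of every follicle. FPKM is the deposited level, scaled for transcript length and library total. *ZP3* stood at 10951 FPKM in T4, 5207 FPKM in T5 and 4217 FPKM in T6. In T1 it stood at 1948 FPKM, in T2 at 2547 FPKM and in T3 at 2005 FPKM. The groups did not overlap, as for 5.94% of all genes, and the lowest of T4, T5 and T6 was 1.66 times the highest of T1, T2 and T3. T4, T5 and T6 differed widely among themselves, with a mean of 6792 ± 3636 FPKM (SD, n = 3) and a coefficient of variation of 53.5%. T1, T2 and T3 lay close together, at 2167 ± 330 FPKM (SD, n = 3) and a coefficient of variation of 15.3%. The order of the levels was T4, T5, T6, T2, T3 and T1. Each follicle had 1 library, so whether neighbours in this order differ beyond library error was not tested.

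**Figure D1:**
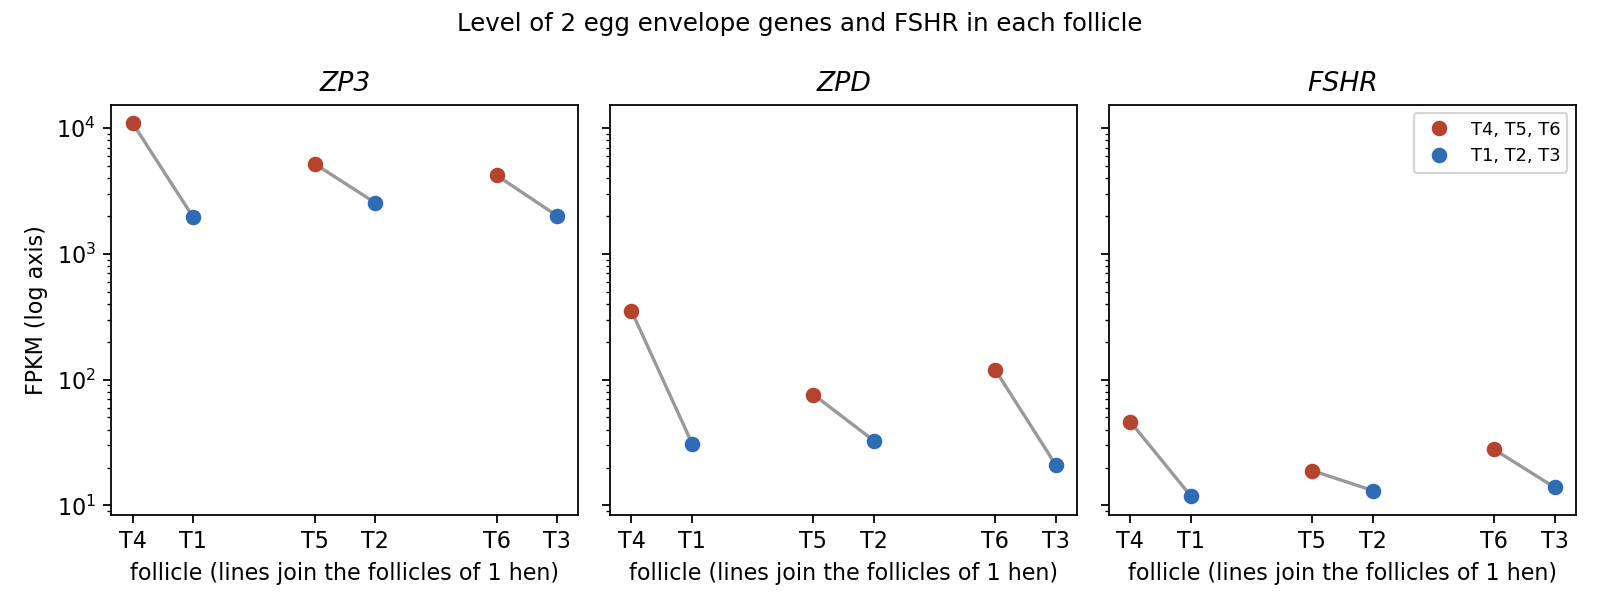
FPKM on a log axis of *ZP3*, *ZPD* and *FSHR* in each follicle, with lines joining the 2 follicles of a hen. Red points (T4, T5 and T6) all lie above blue points (T1, T2 and T3) for each gene, as for 5.94% of all genes. *ZP3* lay between 1948 and 10951 FPKM and *FSHR* between 11.9 and 46.4 FPKM.

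By rank in FPKM, *ZP3* was gene 7 of 17992 in T4, 16 in T5 and 21 in T6, against 49 in T1, 28 in T2 and 46 in T3. FPKM favours very short transcripts, and 332 genes under 300 bases took 44.1% to 52.0% of summed FPKM. Among genes of at least 300 bases *ZP3* ranked 1 in T4, 6 in T5 and 10 in T6, against 31 in T1, 16 in T2 and 31 in T3. *ZP3* was thus the highest transcript of that length in T4 on the FPKM scale. By the deposited normalized count, which is not divided by length, it ranked 5 in T4, 8 in T5 and 13 in T6, against 42 in T1, 22 in T2 and 38 in T3.

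The share of summed FPKM taken by *ZP3* was 0.914% in T4, 0.404% in T5 and 0.303% in T6, against 0.139% in T1, 0.190% in T2 and 0.171% in T3. The difference was 0.775 percentage points for T4 and T1, 0.214 for T5 and T2 and 0.131 for T6 and T3, with a mean of 0.373 ± 0.350 (SD, n = 3). An exact two-sided sign-flip permutation test over the 3 hens gave p = 0.25, the smallest value that 3 pairs allow. Without hen 1 the mean difference was 0.173 percentage points. Among genes of at least 300 bases the share was 1.65% in T4, 0.759% in T5 and 0.562% in T6, against 0.290% in T1, 0.389% in T2 and 0.307% in T3.

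**Figure D2:**
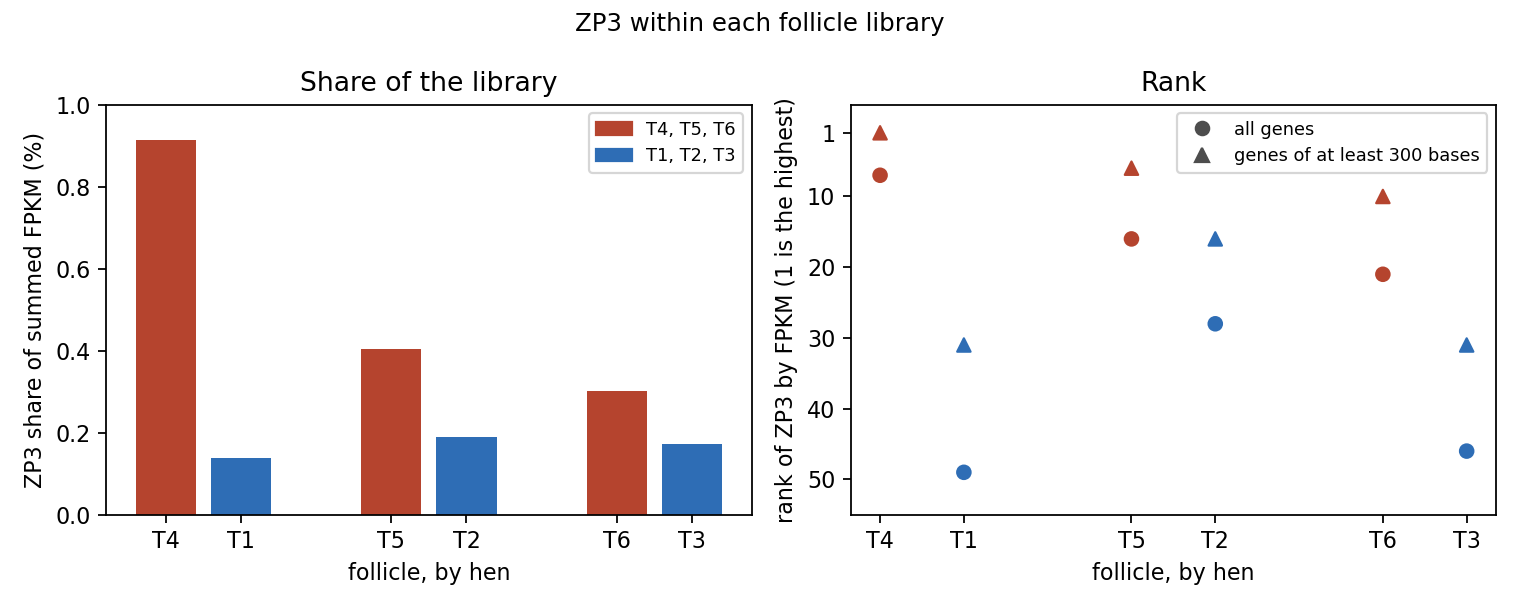
Share of summed FPKM taken by *ZP3* (left, percent, bars from 0) and its rank by FPKM (right, 1 is the highest level) in each follicle, with the follicles of a hen side by side. The share was 0.914% in T4 and 0.139% to 0.404% in the other follicles, and the rank among genes of at least 300 bases ran from 1 in T4 to 31 in T1 and T3.

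Within hens, *ZP3* was 5.62-fold higher in T4 than in T1, 2.04-fold higher in T5 than in T2 and 2.10-fold higher in T6 than in T3 by FPKM. The normalized count gave nearly the same folds, 5.57 in hen 1, 2.10 in hen 2 and 2.13 in hen 3. That measure stood at 113078 in T4, 58335 in T5 and 46169 in T6, against 20296 in T1, 27716 in T2 and 21706 in T3. The ratios of hens 2 and 3 were therefore almost alike on both scales, and that of hen 1 was more than 2 times as large.

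A fold of at least 2 was reached by 682 of 12688 genes in T4 over T1 (5.38%), by 184 of 12585 in T5 over T2 (1.46%) and by 331 of 12706 in T6 over T3 (2.61%). Ordered by log2 ratio, *ZP3* was gene 65 in hen 1, 172 in hen 2 and 277 in hen 3. It was 1 of 34 genes of 12381 (0.275%) that reached a fold of at least 2 in all 3 pairs. In hens 2 and 3 *ZP3* only just cleared that limit, with log2 ratios of 1.03 and 1.07. As a share of summed FPKM its folds were 6.56, 2.13 and 1.77 in hens 1, 2 and 3. As a share of summed normalized count they were 5.27, 2.02 and 1.96, so hen 3 lay under 2-fold by both shares. T4, T5 and T6 all lay above T1, T2 and T3 for 735 of 12381 genes (5.94%), and for 29 of them (0.234%) the gap between the groups was at least as wide as for *ZP3*. The median log2 ratio of all genes was 0.01 in hen 1, -0.02 in hen 2 and 0.01 in hen 3. *ZP3* was chosen with earlier results of these data known. Like the other named genes, it had its name through the study's comparison of T4 with T1. That it differed in hen 1, though not the direction, follows from this. The shares of all genes are therefore not a fair background for *ZP3*.

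In absolute terms *ZP3* was higher by 9004 FPKM in T4 over T1, by 2660 FPKM in T5 over T2 and by 2212 FPKM in T6 over T3. Among genes of at least 300 bases, ordered by this difference, *ZP3* was at place 1 in hens 1 and 2 and at place 4 in hen 3. Over all follicles 146 genes of that length reached 1000 FPKM in at least 1 follicle, and 6 of them were at least 2-fold higher in all 3 pairs. A gene could enter this set through T4, T5 or T6 alone, so the count is a description.

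The other 5 were identified after their values were seen. They were *INHA* (inhibin alpha subunit, a granulosa product that lowers FSH release), *RLN3* (a relaxin family peptide hormone), *RALB* (a small GTPase), and the genes described as tissue factor pathway inhibitor 2 (a protease inhibitor) and as cocaine- and amphetamine-regulated transcript protein (a secreted peptide). Their highest levels were all in T4, between 1024 and 2533 FPKM, well under the 10951 FPKM of *ZP3*. In T1, T2 and T3 all 5 lay between 10.1 and 553 FPKM, and they entered the set only through T4, T5 or T6.

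Over the 3 hens, *ZP3* had a mean log2 ratio of 1.53 (SD 0.83, n = 3 hens, on log2 of FPKM + 0.5). The 3 hens were at 2.49, 1.03 and 1.07. Its SE in limma, which shares the spread between genes, was 0.38. It was higher in 3 of 3 hens. In limma with the hen as a block, its unadjusted p was 0.00834 and its Benjamini-Hochberg adjusted p over 12381 genes was 0.774, so *ZP3* did not pass the test. No gene passed in that fit (0 of 12381, 0%), and 708 genes (5.72%) had an unadjusted p under 0.05. Hen 1, through which *ZP3* came to have a name, enters its unadjusted p. Without hen 1, with 2 pairs left, the mean log2 ratio of *ZP3* was 1.05 and its limma adjusted p was 0.00277, with 466 genes called (3.76%). That call depended on the robust option of limma, since without it the adjusted p was 0.0749, and without trend and robust it was 0.126.

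*FSHR* was far less abundant, and its ratio within the pairs is a description, since the follicles were paired by this gene. It stood at 46.4 FPKM in T4, 18.9 FPKM in T5 and 27.8 FPKM in T6, against 11.9 FPKM in T1, 13.1 FPKM in T2 and 13.9 FPKM in T3. The groups did not overlap, as for 5.94% of all genes, and the lowest of T4, T5 and T6 was 1.36 times the highest of T1, T2 and T3. Its FPKM was 3.91-fold higher in T4 than in T1, 1.44-fold higher in T5 than in T2 and 2.01-fold higher in T6 than in T3. It ranked 2756, 4922 and 4024 in T4, T5 and T6, against 6869, 6344 and 6367 in T1, T2 and T3.

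The order of the follicles was not the same for the 2 genes. Both were highest in T4 and lowest in T1, but *ZP3* was higher in T5 than in T6 while *FSHR* was higher in T6 than in T5. Likewise *ZP3* was higher in T2 than in T3, and *FSHR* was slightly higher in T3 (13.9 FPKM) than in T2 (13.1 FPKM). That *FSHR* difference is close to the counting errors of 3.96% in T3 and 4.27% in T2. By rank in FPKM *FSHR* was higher in T2 (6344) than in T3 (6367), and its normalized count was 614 in T3 and 539 in T2. The relative levels by real-time PCR in the paper put *FSHR* slightly higher in T5 than in T6. Its order in these follicles thus differed between the methods. T1, T2 and T3 lay close together for both genes, with a coefficient of variation of 7.94% for *FSHR* and 15.3% for *ZP3*, and T4, T5 and T6 spread by 45.1% for *FSHR* and 53.5% for *ZP3*.

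*ZP3* was 236 times *FSHR* in FPKM in T4, 275 times in T5 and 151 times in T6. In T1, T2 and T3 it was 164, 194 and 144 times. By normalized count, which is not divided by length, it was 57.7, 67.5 and 38.2 times in T4, T5 and T6. In T1, T2 and T3 it was 41.4, 51.5 and 35.3 times on that scale. The size of the excess thus depends on the measure. The listed lengths of 1341 bases for *ZP3* and 3486 bases for *FSHR* account for only a part of that gap, and the rest was not examined. The log2 ratio of *ZP3* within a hen was larger than that of *FSHR* by 0.57 for T4 and T1, 0.52 for T5 and T2 and 0.09 for T6 and T3, with a mean of 0.39 ± 0.26 (SD, n = 3). The exact two-sided sign-flip permutation test gave p = 0.25, again the smallest that 3 pairs allow, so a difference between the 2 genes could not be shown. Without hen 1 the mean difference was 0.31.

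Of the 7 egg envelope genes listed (*ZP1*, *ZP2*, *ZP3*, *ZP4*, *ZPD*, *ZPAX* and *ZPX1*), only *ZP3* and *ZPD* could be tied to a gene number, and the others were not analysed here. *ZPD*, a second envelope protein made by granulosa cells in birds, was at 352 FPKM in T4, 76.1 FPKM in T5 and 119 FPKM in T6, against 31.0 FPKM in T1, 32.6 FPKM in T2 and 20.8 FPKM in T3. Its groups did not overlap either, as for 5.94% of all genes, and the lowest of T4, T5 and T6 was 2.33 times the highest of T1, T2 and T3. *ZPD* had a name through the study's comparison of T4 with T1. That it differed in hen 1, though not the direction, follows from this, so the share of all genes is not a fair background for *ZPD*. Its mean log2 ratio was 2.39 (SD 1.14, n = 3 hens, limma SE 0.42, limma adjusted p = 0.774, higher in 3 of 3 hens). Without hen 1 it was 1.85, with a limma adjusted p of 1.3e-13, of 0.00625 without robust and of 0.0757 without trend and robust.

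The 2 envelope genes did not keep a fixed proportion in FPKM. *ZP3* was 31.1 times *ZPD* in T4, 68.4 times in T5 and 35.3 times in T6, against 62.7 times in T1, 78.1 times in T2 and 96.2 times in T3. The log2 ratio of *ZPD* exceeded that of *ZP3* by 0.99 in hen 1, 0.18 in hen 2 and 1.42 in hen 3 (mean 0.86 ± 0.63, SD, n = 3, exact sign-flip permutation p = 0.25). *ZPD* thus had the larger ratio in 3 of 3 hens, with the smallest gap in hen 2.

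*ZP3* was next set beside the 10 of 22 listed granulosa genes that could be tied to a gene number. Names were available for genes that the study listed as different between T4 and T1. That list members differed in T4 over T1 thus follows from how they came to have names. Beside *FSHR* and *INHA*, the 10 were *WNT4* (a signal of ovarian differentiation), *FST* (follistatin, which binds activin), the nuclear receptors *NR5A1* and *NR0B1*, the transcription factors *GATA4* and *GATA6*, *CDH2* (N-cadherin) and *BMPR1B* (a BMP receptor). In T4 over T1 all 10 were at least 2-fold higher (5.38% of all genes were), with a median log2 ratio of 1.46. In T5 over T2 only *INHA* was (1.46% of all genes were), and the median was 0.11. In T6 over T3 *INHA*, *WNT4* and *NR5A1* were at least 2-fold higher (2.61% of all genes were), *FST* was at least 2-fold lower, as were 4.41% of all genes, and the median was 0.54. *FSHR*, at 0.98 on this scale of FPKM + 0.5, lay just under 2-fold.

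In hen 2 *ZP3* was 2-fold higher while most of these genes were near even. Its log2 ratio of 1.03 in T5 over T2 stood beside values within 0.25 of 0 for 7 of the 10, namely *FST*, *NR5A1*, *NR0B1*, *GATA4*, *GATA6*, *CDH2* and *BMPR1B*, and beside -0.67 for *WNT4* and 0.51 for *FSHR*. *INHA* alone had a larger log2 ratio than *ZP3* in hen 1 (4.97) and in hen 2 (2.44). In hen 3 *INHA* (6.23), *WNT4* (1.99) and *NR5A1* (1.29) had a larger one than the 1.07 of *ZP3*. Beside *FSHR*, by which the follicles were paired, *INHA* and *GATA6* were the 2 of 9 whose levels in T4, T5 and T6 all lay above those in T1, T2 and T3, against 5.94% of all genes. In limma over the hens 4 of these 9 had an unadjusted p under 0.05, against 5.72% of all genes, and 0 passed the adjusted limit. Hen 1, through which these genes came to have names, enters both counts. The shares of all genes are therefore not a fair background for them.

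**Figure D3:**
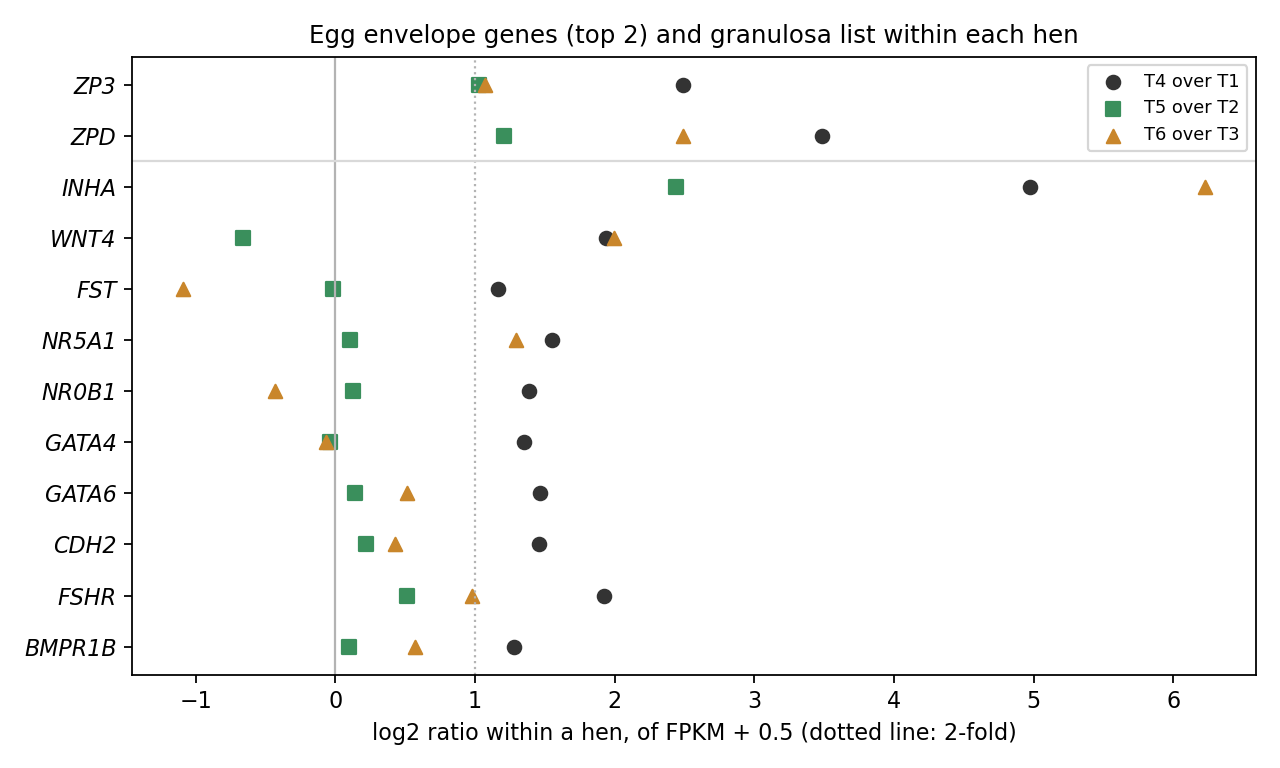
Log2 ratio of FPKM + 0.5 within each hen (x axis) for *ZP3* and *ZPD* (top) and the 10 granulosa genes, with 1 symbol per hen. *ZP3* and *ZPD* lay right of the 2-fold line in all 3 hens, as did *INHA*, while 7 of the 10 granulosa genes lay within 0.25 of 0 in T5 over T2.

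*ZP3* and *INHA* were out of proportion in the other direction. *ZP3* was 7.35 times *INHA* in T4, 17.6 times in T5 and 5.31 times in T6, against 41.4 times in T1, 46.8 times in T2 and 199 times in T3, all in FPKM. *INHA* itself had FPKM values of 1491 in T4, 296 in T5 and 794 in T6, against 47.0, 54.4 and 10.1 FPKM in T1, T2 and T3. Set against the summed FPKM of all 10 granulosa genes, *ZP3* was 3.02 times that sum in T4, 5.97 times in T5 and 2.30 times in T6, against 2.62 times in T1, 3.62 times in T2 and 2.82 times in T3. These ratios overlapped between the groups. In T4 *INHA* and *WNT4* had 1491 and 965 of the 3626 FPKM of that sum, and in T6 794 and 475 of 1831, so it is not an even measure of the 10 genes.

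Markers of the follicle wall also differed in hen 1, in the opposite direction to *ZP3*. The summed FPKM of 14 of 17 listed theca and fibroblast genes, led by *COL1A2*, *COL3A1* and *COL6A2* (fibrillar and microfibrillar collagens), was 1300 in T4, 5174 in T5 and 7575 in T6, against 6879 in T1, 5018 in T2 and 8428 in T3. All 14 were at least 2-fold lower in T4 than in T1, as were 13.3% of all genes, and none was at 0 in any follicle. As for the granulosa list, genes had names through the comparison of T4 with T1. That they differed in hen 1, though not the direction, follows from this, here and in the other lists. Of 9 endothelial genes, 5 were matched. The 5 endothelial genes, led by *RAMP2*, *CD34* and *APLNR*, summed to 34.3 FPKM in T4, 200 FPKM in T5 and 190 FPKM in T6, against 184, 173 and 216 FPKM in T1, T2 and T3. The granulosa sum was 3626 FPKM in T4, 871 FPKM in T5 and 1831 FPKM in T6, against 743, 704 and 710 FPKM in T1, T2 and T3. Most of it in T4 and T6 came from *INHA* and *WNT4*. In hens 2 and 3 the median log2 ratio of the theca and fibroblast genes was 0.05 and -0.09. Single genes of that list ran from -0.29 to 1.04 in hen 2 and from -1.12 to 0.23 in hen 3. The part of these lists in the *ZP3* ratio was not tested in any hen.

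Of the remaining lists few genes were matched. Of 7 leukocyte genes 3 were matched (*MPEG1*, *CD44* and *CD4*), with sums of 1.41, 7.47 and 27.9 FPKM in T4, T5 and T6, against 7.87, 9.26 and 60.8 FPKM in T1, T2 and T3. Of 6 smooth muscle genes only *DES* (desmin) was matched, with 54.8 FPKM in T4, 240 FPKM in T5 and 274 FPKM in T6, against 259, 181 and 393 FPKM in T1, T2 and T3. Of 5 nerve genes *TH* (the first enzyme of catecholamine synthesis) and *SOX10* (a glial transcription factor) were matched. *TH* had 60.5 FPKM in T4, 16.6 FPKM in T5 and 35.7 FPKM in T6, against 0.586 FPKM in T1, 2.70 FPKM in T2 and 1.01 FPKM in T3. Its groups did not overlap, as for 5.94% of all genes. *SOX10* had 0.366, 3.79 and 3.50 FPKM in T4, T5 and T6, against 2.99, 5.40 and 4.49 FPKM in T1, T2 and T3. The part of these genes in the *ZP3* ratios was not tested. Of the red blood cell and oocyte lists 0 genes were matched, so the oocyte share of a library was not examined here.

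The genes most like *ZP3* were sought among 8073 genes with at least 5 FPKM in every follicle. Likeness was the root mean square (RMS) difference of the log2 profiles over the 6 follicles after each gene's mean was removed. The closest was *SCUBE3* (a secreted EGF-domain protein), with an RMS difference of 0.20, followed by *SKP2* (the F-box subunit of a ubiquitin ligase, 0.20), the gene described as phospholipase B 81b (0.22), *PSIP1* (a chromatin-bound coactivator, 0.24) and *SEMA5A* (a semaphorin guidance protein, 0.26). The 20th gene was at 0.33 and the 21st at 0.33, so the border of the list is not sharp. The median gene was at 0.88.

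The closest gene, *SCUBE3*, was at 30.3 FPKM in T4, 13.6 FPKM in T5 and 11.8 FPKM in T6, against 6.69 FPKM in T1, 9.36 FPKM in T2 and 6.07 FPKM in T3. *PSIP1* had 601 FPKM in T4, 265 FPKM in T5 and 245 FPKM in T6, against 163, 160 and 140 FPKM in T1, T2 and T3. Both had T5 above T6, as *ZP3* did, but over the closest 20 this order was split, with T5 above T6 in 9 and T6 above T5, as in *FSHR*, in 11. The mean levels of the 20 lay between 10.4 and 2186 FPKM.

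Others of the closest 20 were the basement membrane collagens *COL4A3* and *COL18A1*, the proteoglycan *CSPG5*, the sulfotransferase *CHST15*, the sugar nucleotide enzyme *UXS1*, the sodium pump subunit *ATP1B1*, the noggin family BMP antagonist *NOG4*, the DNA methyltransferase *DNMT3B*, the transcription factors of RNA polymerases *BDP1* and *TTF1*, the docking protein *DOK4*, the calcium sensor *VSNL1*, the membrane protein *TMEM117* and *SPAG16*, known from sperm tails. *COL18A1* was the most abundant, with 4379 FPKM in T4, 2228 FPKM in T5 and 2162 FPKM in T6, against 1163, 1687 and 1498 FPKM in T1, T2 and T3. All 20 were at least 2-fold higher in T4 than in T1, but only *BDP1* was so in T5 over T2, and 6 were in T6 over T3. The choice by profile fixes much of this, and it was not tested. None of the 20 lay on the chromosome of *ZP3*.

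*FSHR* was at place 24 of the 8073, with an RMS difference of 0.35. Among other granulosa genes, *BMPR1B* was at place 103, *GATA6* at 110, *CDH2* at 207 and *NR5A1* at 212. Further off were *GATA4* at 530, *WNT4* at 657 and *INHA* at 8013. The RMS difference takes in size as well as direction, so a steeper gene of the same direction is also placed further off. *INHA*, like *ZPD*, was higher in T4, T5 or T6 within every hen, with a larger log2 ratio than *ZP3*. The places of *FST* and *NR0B1*, with log2 ratios in hen 3 of -1.09 and -0.43, are not given here. *ZPD* was at place 237, with an RMS difference of 0.58. Hen 1 carried much of this likeness. Over the 4 follicles of hens 2 and 3, 6 of the 20 genes were still among the closest 20 and 15 among the closest 100. *FSHR* was then at place 371, *BMPR1B* at 601, *GATA6* at 1948, *CDH2* at 2297, *ZPD* at 2918 and *NR5A1* at 3046. Without hen 1 *GATA4* was at 5655, *WNT4* at 6883 and *INHA* at 8072. By normalized count 14 of the 20 stayed among the closest 20.

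**Figure D4:**
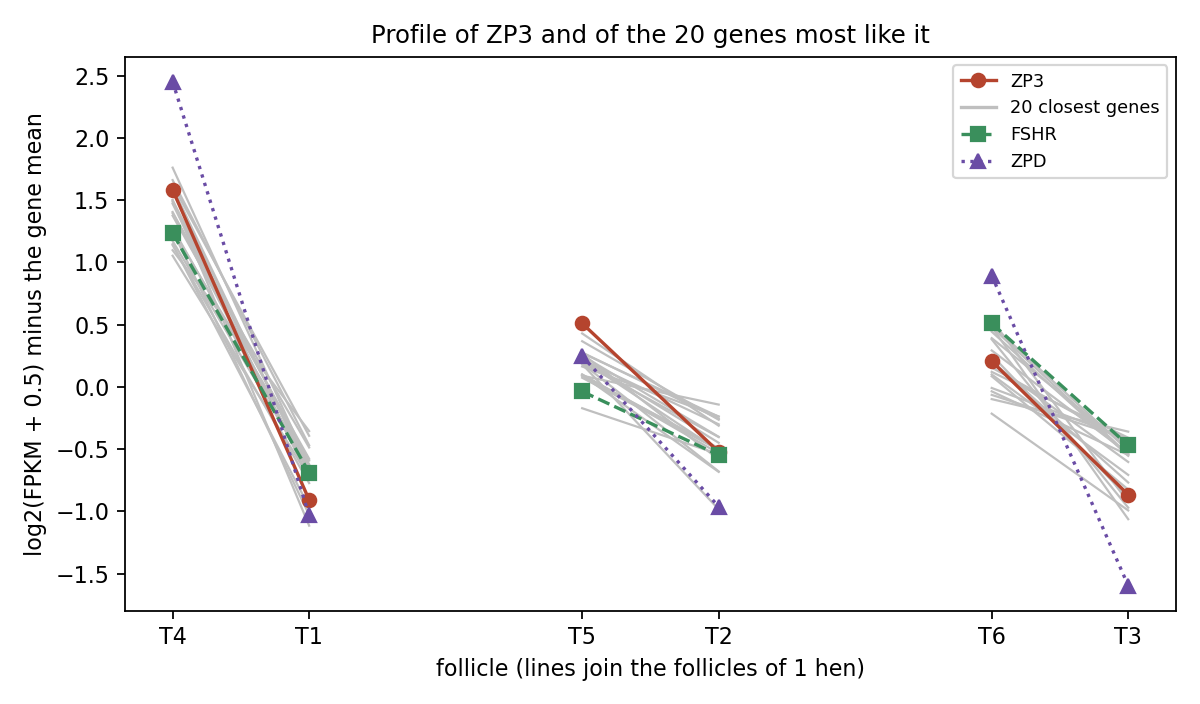
Log2(FPKM + 0.5) minus the mean of each gene over the 6 follicles, for *ZP3*, its 20 closest genes (grey), *FSHR* and *ZPD*, with lines joining the 2 follicles of a hen. All are highest in T4, *ZP3* is higher in T5 than in T6, and *FSHR* and *ZPD* are higher in T6 than in T5.

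The chromosomal neighbours of *ZP3* did not share its ratios, apart from *STRA6*. Within 100 kb the table lists 18 other genes, none overlapping *ZP3*, and 17 passed the filter of 1 FPKM in 3 follicles, the other being at 0 in every follicle. The neighbouring gene upstream on the same strand (gene11606, 973 bases away) had 15.8 FPKM in T4, 11.8 FPKM in T5 and 8.68 FPKM in T6, against 15.2, 15.6 and 7.40 FPKM in T1, T2 and T3. The neighbouring gene downstream (gene11608, 963 bases away) had 111 FPKM in T4, 145 FPKM in T5 and 105 FPKM in T6, against 128, 169 and 89.7 FPKM in T1, T2 and T3. Their groups overlapped, and the highest FPKM of any neighbour was 991.

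The median log2 ratio of the 17 neighbours was 0.07 in hen 1, -0.08 in hen 2 and 0.23 in hen 3. *STRA6*, the cell surface receptor for retinol-binding protein, was at least 2-fold higher in all 3 pairs, as were 0.275% of all genes. It was at 36.3 FPKM in T4, 9.65 FPKM in T5 and 14.9 FPKM in T6, against 0.515 FPKM in T1, 0.548 FPKM in T2 and 4.58 FPKM in T3. Its groups did not overlap, as for 5.94% of all genes. The other 16 had log2 ratios of -1.68 to 0.97 in hen 1, -0.39 to 0.28 in hen 2 and -0.27 to 1.09 in hen 3. Whether counting used the strand of reads was not stated, and none of these genes overlaps *ZP3*.

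**Figure D5:**
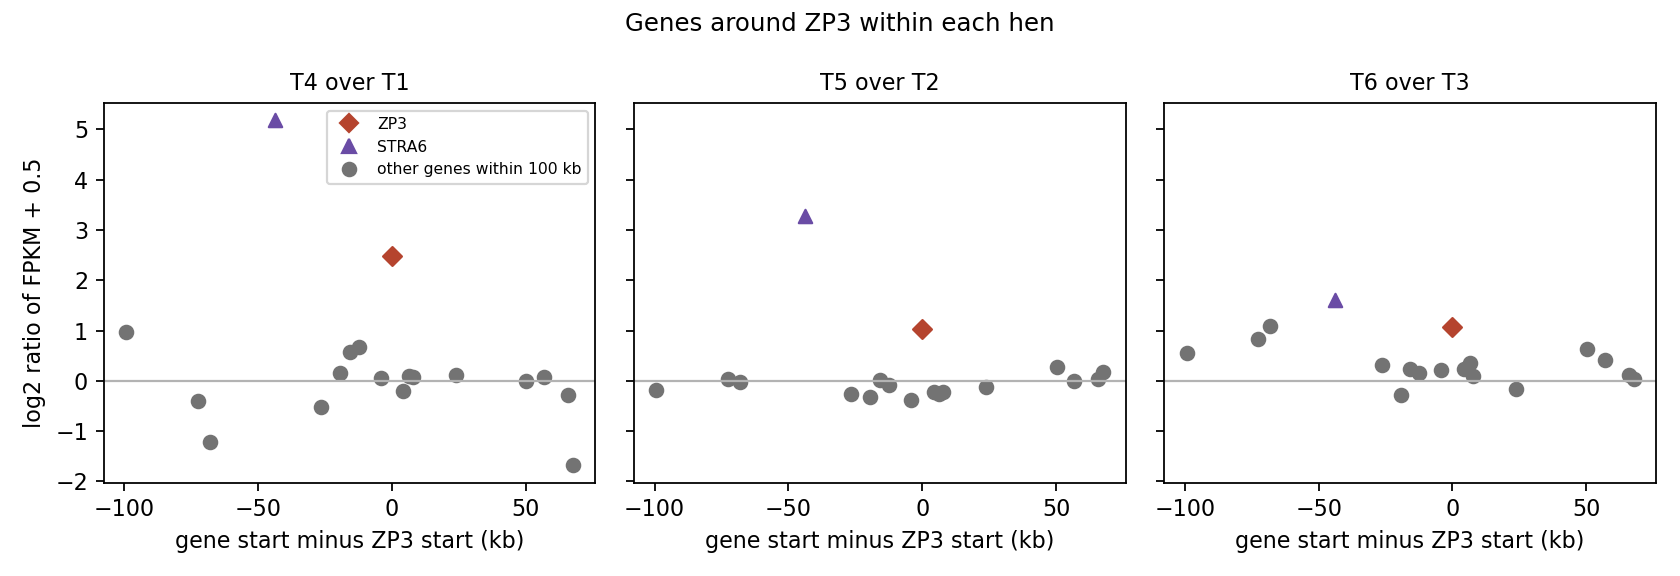
Log2 ratio of FPKM + 0.5 within each hen (1 panel per hen) of *ZP3* and of the genes within 100 kb that passed the filter, by the distance of the gene's start from the start of *ZP3* in kb. *ZP3* and *STRA6* lay above 1 in all 3 panels, and the other genes lay between -1.68 and 1.09.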

How the data were processed

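The authors extracted RNA from 6 whole follicles (the paper names TRIzol, the labels a tissue RNA kit), enriched poly(A) RNA, sequenced 1 library per follicle and mapped the fragments; Cufflinks and Bowtie 0.12.2 are named in the notes on processing from the submitters. The sources conflict on the genome build, and they do not state strand use in counting. The authors deposited 1 table with FPKM, which they scaled by transcript length and by the fragments of the library. For *ZP3* the listed length and the estimated fragments give a lower value by that formula than the deposited one. Why was not examined. The second deposited measure, the normalized count, is a signal scaled per library but not by length. Of its values under 30, 89.9% to 90.4% per library were whole multiples of 1 step within 0.02, and totals divided by that step gave the estimated fragments. Because the rest were fractions, no count model was used. Intervals from fragments cover counting error only. The table has 17993 lines under its header, of which 1 repeats the header, and 1 column of values with no sample name was not used.

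The log2 ratios were taken on FPKM + 0.5, which understates the change of low genes. For the 3 hens together, limma 3.58.1 (R 4.3.3; lmFit, eBayes with trend and robust) was fitted with the hen as a block to the genes that reached 1 FPKM in 3 or more follicles. P-values were adjusted by Benjamini-Hochberg and called under 0.05. The pairing by hen comes from the paper. Deviations from the group means correlated at 0.43, 0.18 and 0.53 within hens 1, 2 and 3, and at -0.46 to 0.18 between hens. The value within hen 2 was no higher than the highest between hens, so these correlations do not bear out the pairing of hen 2. For each pair, genes that reached 1 FPKM in either follicle were counted at a fold of 2 with no test, as each follicle had 1 library. Other steps used Python 3.11.15 (scipy 1.17.1, pandas 2.3.3, numpy 2.4.6) and figures matplotlib 3.10.9.

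Names came from the study's annotation of gene numbers, made for genes it listed as different between T4 and T1. The part of that list used here held 769 annotated genes, fewer than the paper counts for T4 and T1. Of 59 names, 42 rest on a KEGG entry, 4 on agreeing Swiss-Prot and nr descriptions and 13, *ZPD* and *STRA6* among them, on the nr description alone, which the naming rule had not foreseen. Beyond these 59, *RALB* and *RLN3* were named from KEGG entries of the same annotation after their values were seen. The rule named *ZP3*, *FSHR*, the matched egg envelope and granulosa genes, the 20 genes closest in profile, annotated genes within 100 kb, and up to 3 genes of each other list; 1 of the closest 20 is not reported here by name. Chromosomes were assigned through genes with a KEGG entry in the reference table (11 of 11 for chromosome 10, 19 of 19 for chromosome 3, 10 of 10 for chromosome 11). *ZP3*, the lists and the tests were chosen with earlier results of these data known. Alternatives were pseudocounts of 0.1 and 1, normalized count in place of FPKM, filters of none and of 5 FPKM, scaling by the median of ratios, no replicate block, eBayes without robust or trend, shares over other gene sets, and each hen left out. In all 5 alternatives were chosen after seeing the data: ranks among genes of at least 300 bases and by normalized count, profiles without hen 1 and by normalized count, and the fit without hen 1 with the other eBayes settings.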

Additional observations from a re-analysis of the deposited data

How the results depend on the processing

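The direction of the *ZP3* and *FSHR* log2 ratios over hens was kept in every alternative run. Both genes were higher in every hen, so leaving out a hen or changing the pseudocount, filter or eBayes options could not reverse it. Hen 1 was the one whose removal changed the call for *ZP3*. Leaving out each hen in turn gave 1.05 to 1.78 for *ZP3*, with an adjusted p of 0.00277 without hen 1, 0.731 without hen 2 and 0.999 without hen 3, and 0.74 to 1.45 for *FSHR*, given as a description since the follicles were paired by it. Without hen 1 but with eBayes without robust, or without trend and robust, settings chosen after seeing the data, the adjusted p of *ZP3* was 0.0749 and 0.126. Genes called over hens numbered 0 to 466 when each hen was left out, the 466 being without hen 1, where 125 were called without robust and 21 without trend and robust. In all other settings 0 genes were called, with adjusted p for *ZP3* of 0.745 to 0.806, and 0.962 with no replicate block. The difference between the *ZP3* and *FSHR* log2 ratios lay between 0.31 and 0.54 when each hen was left out and between 0.33 and 0.42 under other pseudocounts and the normalized count. The difference in the *ZP3* share lay between 0.173 and 0.494 percentage points when each hen was left out, and was 0.661 without genes under 300 bases, 0.615 without the 10 most abundant other genes and 0.356 by normalized count. Of the counts of genes at least 2-fold higher, only that of T5 over T2 moved by more than 1.5 times, to 102 with a filter of 5 FPKM, against 184.

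Each follicle had 1 library and each hen 2 follicles, so the spread is known over 3 hens only, and a sign-flip test cannot go below 0.25. The depth does not limit *ZP3*, whose counting error was under 1% in every library. Shares and ranks by FPKM depend on the very short genes. Names were available only for genes that the study listed as different between T4 and T1, so lists are incomplete and hold only such genes.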
